A study of Mus musculus with 8 samples.

Results

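The 28 genes described here make cholesterol, sense it, or move and store it inside the cell. They were listed by symbol and are 28 of the 31053 genes in the count table. Of these, 19 encode enzymes of the route from acetyl-CoA to cholesterol, 5 encode the machinery that senses sterols, and 4 encode proteins of sterol transport and storage. The list does not hold every step of the route. RNA was measured by bulk sequencing of brown adipose tissue (BAT), the thermogenic fat depot, in 4 libraries labelled WT and 4 labelled Cd36KO. The labels give C57BL6/J and an age of 8 weeks for all 8 libraries, while the study's methods give a later age at sacrifice for mice without CD36 in macrophages. Cd36 encodes a scavenger receptor for fatty acids, lipoproteins and vesicles. The labels name the genotype of the mutant only as Cd36KO. The study describes a germline deletion and a deletion in myeloid cells, made with a floxed allele and Cre under the Csf1r promoter, and attributes its BAT transcriptome to the second. In that model the other cells of the depot keep the gene. The study names as many mice per group as there are libraries, and the p-values measure the spread between these libraries.

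Cholesterol is built in the cytosol and the endoplasmic reticulum (ER) from acetyl-CoA, by way of mevalonate, prenyl diphosphates, squalene and lanosterol. The pathway is controlled by the transcription factor SREBP2, made from Srebf2. When ER sterol is low, the escort protein SCAP carries the SREBP2 precursor to the Golgi, where proteases release its active part. When ER sterol is high, the INSIG proteins hold SCAP in the ER. The same factor also drives genes of sterol uptake, so the transcripts of its targets are commonly read together as a measure of its activity. In BAT, sterol handling runs beside a large uptake of lipoprotein lipid and an active supply of acetyl-CoA for fat synthesis.

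Total counts ranged from 2679785 to 4097953 per library, and between 13368 and 14698 genes had at least 1 count. Values below are normalized counts, that is, the count divided by the size factor of its library. Cd36 had 2412 to 3505 normalized counts in WT and 1926 to 2384 in Cd36KO. These ranges did not overlap, but the decrease missed the threshold (log2 fold change -0.48, SE 0.16, n = 4 each, DESeq2 adjusted p = 0.0602). The labels give the cell type as stromal vascular fraction, whereas all 8 markers listed here for brown adipocytes were detected in every library. Their summed level was 10974 to 14871 CPM, which is counts scaled to a common library total. That list includes Adipoq, Plin1, Fabp4 and Pparg, which are also expressed in white adipocytes. The study states male mice, but Xist had 772 to 1588 counts in each library. The Y-linked genes Uty, Kdm5d, Eif2s3y and Ddx3y together had 3 counts in WT replicate 1 and 0 in every other library. WT replicate 1 stood apart from the other WT libraries, with 16069 CPM of skeletal muscle markers against 156 to 2947, and 247 CPM of white fat markers against 1311 to 1533. The 4 Cd36KO libraries had 179 to 294 CPM of white fat markers. Cell numbers and RNA per cell cannot be told apart in bulk tissue.

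All 28 sterol genes had counts in some library, and 26 had enough for an adjusted p. The other 2, Idi1 and Tm7sf2, had a mean below 10 normalized counts. At an adjusted p under 0.05, 1 of the 26 genes was higher in Cd36KO, the thiolase gene Acat2, and 0 were lower (DESeq2 Wald test). Over all 9619 genes tested, 1.42% passed in the higher and 1.53% in the lower direction, 2.95% in all. By edgeR's quasi-likelihood test 0 of the 26 passed, against 0.143% of all genes. At an unadjusted p under 0.05, DESeq2 gave 1 higher and 1 lower gene, Acat2 and Sc5d, and edgeR the same 2, where 15.6% and 16.1% of all genes reached that level. The log2 fold changes of the 26 genes ran from -0.73 to 0.57 with a median of 0.09, beside a median of -0.0088 over all genes. Of the 26 values, 17 were positive and 9 negative, and 49.2% of all genes tested were positive. The median ran from 0.02 to 0.19 when 1 library was left out, and it was negative in the 6 libraries numbered 2 to 4 (-0.08, and -0.15 with the replicate number as a block). The 95% interval lay within a log2 change of 1 in either direction for 12 genes, and it included 0 for 24.

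**Figure D1:**
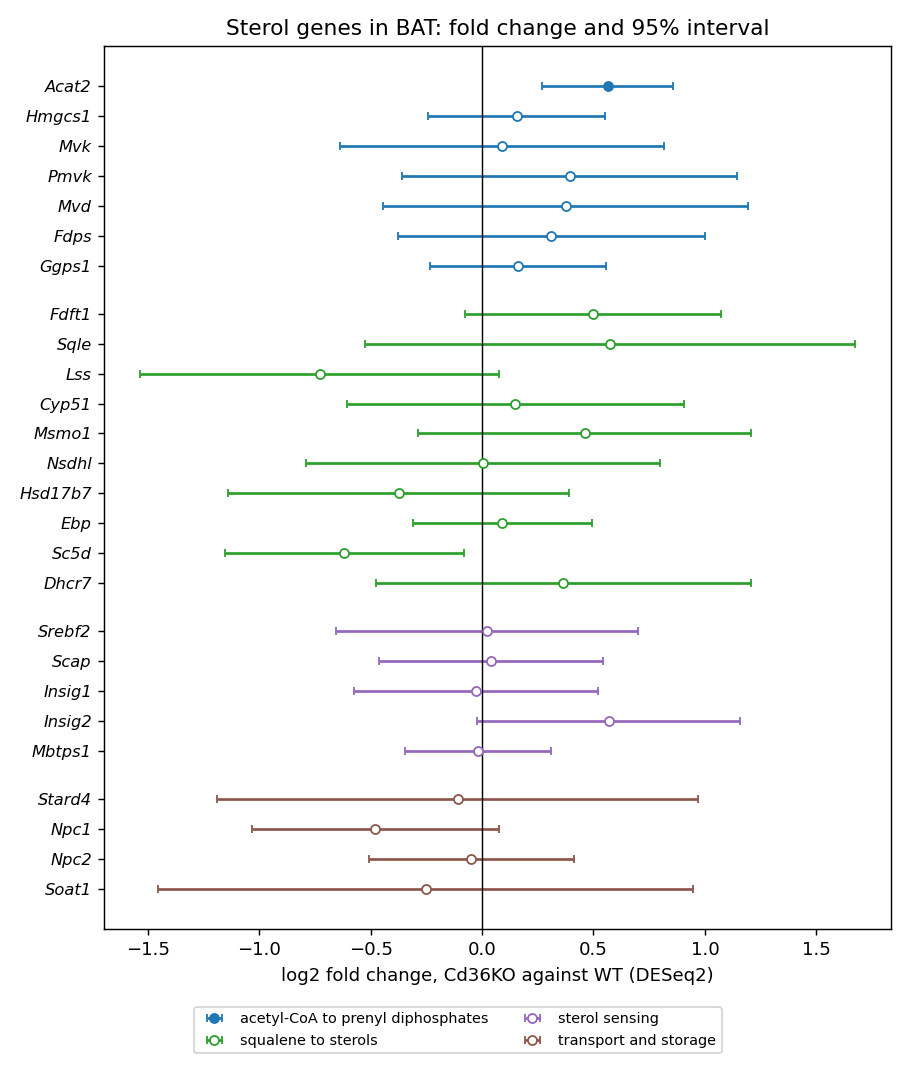
Log2 fold change of Cd36KO against WT (x axis, DESeq2, n = 4 each) for the 26 sterol genes with an adjusted p (y axis, by role), with 95% intervals as bars. Filled points have an adjusted p under 0.05. Only Acat2 is filled, the 7 genes from acetyl-CoA to prenyl diphosphates lie above 0 and the 4 of transport and storage below it, in this fit of all 8 libraries, and several of them change sign in other fits.

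By length-normalized level (CPM per kb of exon), the most abundant of the 28 was Npc2 with a mean of 137 in WT and 129 in Cd36KO. It was followed by Acat2 with 73.2 and 103.9, Hmgcs1 with 43.0 and 45.2, and Pmvk with 33.3 and 42.6. By mean normalized count over all 8 libraries, Npc2, Acat2 and Hmgcs1 also came first, but Insig1 (260) and Mbtps1 (222) exceeded Pmvk (207). Whether counts scale with transcript length in this protocol is not given in the sources used here. Soat1, the ER enzyme that esterifies cholesterol, was at 0.481 and 0.391 on this scale. Srebf2 itself was low, at 1.57 and 1.53. The lowest value was that of Idi1, at 0.0679 and 0.0767. Its transcript shares sequence with pseudogenes, and how such reads were counted is not given in the sources used here. The value may therefore not reflect the abundance of Idi1.

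Acat2 (ENSMUSG00000023832, GRCm38 chr17:12942890-12960747, minus strand) encodes the cytosolic thiolase that joins a pair of acetyl-CoA molecules to acetoacetyl-CoA, the first step of the route. It is not the sterol acyltransferase that shares the name ACAT2. The WT libraries 1 to 4 had 492, 570, 563 and 660 normalized counts. The Cd36KO libraries had 923 in the unnumbered one and 731, 863 and 860 in replicates 2 to 4. Every Cd36KO value lay above every WT value, and among the 26 genes this held for Acat2 alone, where 4.83% of all genes tested showed that pattern, and 8.76% showed it in either direction. The mean of the WT libraries was 571 ± 68.8 and that of the Cd36KO libraries 844 ± 80.9 (SD, n = 4 each), a 1.48-fold rise (log2 fold change 0.56, SE 0.15, 95% interval 0.27 to 0.86, DESeq2 adjusted p = 0.0152). A two-sided exact test that permuted the library labels (70 arrangements) gave p = 0.0286, the smallest such a design allows. The rise did not pass by edgeR (adjusted p = 0.137). Without WT replicate 1 it passed, at a log2 fold change of 0.50 (DESeq2 adjusted p = 0.049). It did not pass without WT replicate 2 or 3 (adjusted p = 0.122 and 0.0851), the unnumbered Cd36KO library (0.114), or Cd36KO replicate 3 or 4 (0.0798 and 0.0919), all by DESeq2.

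Acat2 shares sequence with other genes. Its transcript matches that of the neighbouring paralog Acat3 over 1477 bases at 97.7% identity, and that of the chaperonin subunit gene Tcp1 over 445 bases on the opposite strand. The strand setting of the counting is not given in the sources used here. Acat3 had 3.96 to 27.1 normalized counts in WT and 10.4 to 35.8 in Cd36KO. Added up, Acat2 and Acat3 had 587 ± 63.2 normalized counts in WT against 866 ± 85.8 in Cd36KO libraries (SD, n = 4 each), a ratio of 1.48 (exact two-sided permutation p = 0.0286). Tcp1 had 213.9 to 251 normalized counts in WT and 275 to 335 in Cd36KO, with no overlap of the groups (log2 fold change 0.36, DESeq2 adjusted p = 0.217). The part of shared reads in the Acat2 value was not tested. Acat3 and Tcp1 were named after their values were seen.

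**Figure D2:**
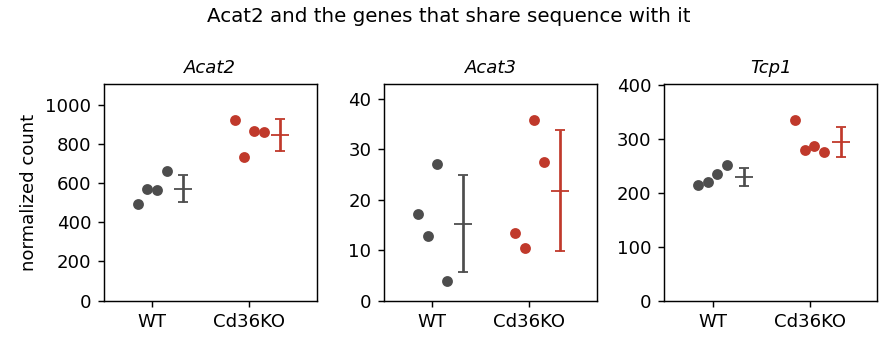
Normalized counts (y axis, from 0) of Acat2, Acat3 and Tcp1 in the 4 WT and 4 Cd36KO libraries, 1 point a library, with the mean and SD beside the points. The Cd36KO points of Acat2 start at 731, above the highest WT point at 660, while those of Acat3 overlap between the groups.

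The other 7 genes between acetyl-CoA and the prenyl diphosphates did not pass the test. Hmgcs1, the synthase that makes HMG-CoA, had 489 to 791 normalized counts in WT and 487 to 735 in Cd36KO (log2 fold change 0.16, 95% interval -0.24 to 0.55). The next enzymes phosphorylate and decarboxylate mevalonate: Mvk had 37.9 to 119 and 41.9 to 90.0, Pmvk 82.1 to 255 and 96.1 to 344, and Mvd 15.3 to 43.5 and 23.0 to 66.8 normalized counts in WT and Cd36KO. Their fold changes were 0.09, 0.39 and 0.37 on the log2 scale, with DESeq2 adjusted p-values of 0.949, 0.69 and 0.746. Fdps, the farnesyl diphosphate synthase, had 32.5 to 72.2 in WT and 40.9 to 91.4 in Cd36KO, at a log2 fold change of 0.31. With 1 library left out, that fold change ran from 0.09 to 0.52. The exons of Fdps overlap those of Gm43738 on the same strand by 1124 bases, and Gm43738 had 0 counts in every library. Ggps1, which makes the geranylgeranyl diphosphate used in protein prenylation, had 127 to 166 and 126 to 188, at 0.16. The intervals of Hmgcs1 and Ggps1 reached up to 0.55, whereas that of Mvd reached 1.19. Idi1, the isopentenyl diphosphate isomerase, had 0 to 2 raw counts per library in either group, at or under the floor of 3 counts, and no fold change is given. Its transcript is identical over 684 bases to that of a processed pseudogene, Gm13502. The 7 genes of this stretch with an adjusted p, Acat2 included, had a median log2 fold change of 0.31, and all 7 values were positive, though those of Mvk, Pmvk, Mvd and Fdps were negative in the 6 libraries numbered 2 to 4 and that of Hmgcs1 was negative with a white fat score as covariate.

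From squalene to cholesterol, 10 of 11 genes had an adjusted p, and 0 passed. Their median log2 fold change was 0.12, with 7 positive and 3 negative values. Fdft1, which joins farnesyl diphosphates to squalene, had 72.2 to 197 normalized counts in WT and 132 to 223 in Cd36KO (log2 fold change 0.50, 95% interval -0.08 to 1.07, DESeq2 adjusted p = 0.416). Its exons overlap those of the cathepsin gene Ctsb on the opposite strand by 774 bases. Sqle, the squalene epoxidase, was measured at only 5 to 26 raw counts, and its interval ran from -0.53 to 1.67. Lss, the lanosterol synthase, had 20.8 to 47.5 in WT and 12.7 to 21.5 in Cd36KO, at a log2 fold change of -0.73 (DESeq2 adjusted p = 0.392), the lowest value among the 26 genes. Its highest WT value was that of WT replicate 4, without which the log2 fold change was -0.39.

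Of the genes that trim lanosterol, Cyp51, the demethylase, had 37.9 to 134 normalized counts in WT and 57.5 to 130 in Cd36KO, at a log2 fold change of 0.15. Msmo1, which oxidizes the remaining methyl groups, had 21.7 to 62.3 and 32.7 to 83.6, at 0.46, with 0.17 to 0.79 when 1 library was left out. Nsdhl, its partner dehydrogenase, had 17.2 to 78.1 and 31.7 to 64.6, at 0.01. The ranges of these 3 genes overlapped widely. Hsd17b7, the ketoreductase of the same complex, had 15.8 to 27.1 in WT and 13.8 to 18.9 in Cd36KO, at -0.37. Ebp, the sterol isomerase, was the best constrained of the late enzymes, with 162 to 237 and 156 to 244 normalized counts and an interval of -0.31 to 0.49. Dhcr7, the last reductase in the route through 7-dehydrocholesterol, had 11.7 to 48.2 and 21.5 to 54.6, at 0.36. Tm7sf2, a sterol reductase, had 2 to 10 raw counts in WT and 1 to 5 in Cd36KO and no adjusted p, and it overlaps Vps51 on the same strand by 532 bases.

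Sc5d, the desaturase just before 7-dehydrocholesterol, had the lowest adjusted p after Acat2. It had 111, 187, 203 and 261 normalized counts in WT libraries 1 to 4. In Cd36KO it had 170 in the unnumbered library and 114, 105 and 108 in replicates 2 to 4. WT replicate 1 lay among the Cd36KO values, and the unnumbered Cd36KO library lay above the other 3 of its group. The log2 fold change was -0.62 (SE 0.27, 95% interval -1.15 to -0.08, DESeq2 adjusted p = 0.223, edgeR adjusted p = 0.226), and the exact two-sided permutation test gave p = 0.0857. Without WT replicate 1 it passed, at -0.81 (DESeq2 adjusted p = 0.0258), and it also passed in the 6 libraries numbered 2 to 4, at -0.99 (0.00195) or, with the replicate number as a block, -0.98 (0.0223). WT replicate 1 was also the WT library with low white fat markers, and with a white fat score as covariate the value was 0.29. The part of white fat in the Sc5d value was not tested beyond that fit. Its values by library were chosen for printing after they were seen.

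The mean level of the enzymes differed less between the genotypes than between libraries of 1 genotype. Over the 17 enzymes with a mean of at least 10 normalized counts, the mean of log2(normalized count + 1) came to 6.22 ± 0.383 for WT libraries and 6.39 ± 0.316 for Cd36KO libraries (SD, n = 4 each), a difference of 0.163 against a pooled SD of 0.351. Relative to the mean of all 8 libraries, WT replicates 1 to 4 were at -0.57, -0.04, -0.09 and 0.37. The unnumbered Cd36KO library was at 0.48, and Cd36KO replicates 2 to 4 were at -0.04, -0.27 and 0.16. The difference between the groups was 0.00074 without WT replicate 1 and 0.0307 without the unnumbered Cd36KO library, and it was 0.313 without WT replicate 4 and 0.279 without Cd36KO replicate 3.

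The same libraries were extreme for most of the enzymes. WT replicate 1 was the lowest WT library for 13 of the 17, or 76.5%, where it was lowest for 31.8% of the 9834 genes at the same minimum mean. WT replicate 4 was the highest WT library for 13, or 76.5%, against 31.2% of all those genes. In Cd36KO, the unnumbered library was the highest for 12 (70.6% against 31.2%), and replicate 3 was the lowest for 9 (52.9% against 22.8%). As examples chosen after the values were seen, Pmvk had 82.1 normalized counts in WT replicate 1, 255 in WT replicate 4, 344 in the unnumbered Cd36KO library and 96.1 in Cd36KO replicate 3. Fdps had 32.5, 72.2, 91.4 and 40.9 normalized counts in the same order. The enzymes that departed from this order included Hmgcs1 and Hsd17b7, both highest among WT libraries in WT replicate 1. The pattern was seen in the values and then counted, the enzymes share their libraries, and no test was made of it. WT replicate 1 had the most muscle marker RNA, and the unnumbered Cd36KO library had the most RNA of lymphoid and blood markers (3195 CPM against 1098 to 1922 in the other 7). The part of either in the pattern was not tested.

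**Figure D3:**
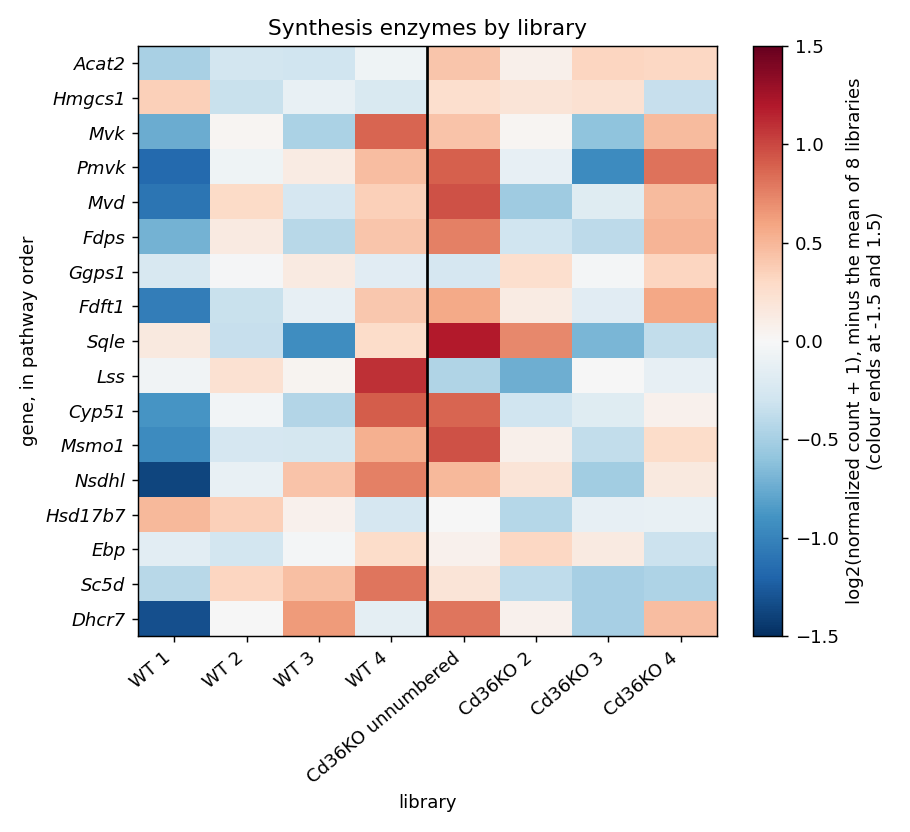
Level of the 17 synthesis enzymes (rows, in pathway order) in the 8 libraries (columns, WT left of the line), as log2(normalized count + 1) minus the mean of the gene over 8 libraries. WT replicate 1 is lowest within WT for 13 enzymes and the unnumbered Cd36KO library is highest within Cd36KO for 12.

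The promoters of the sterol genes were read for the motifs that SREBP2 and its partner factors bind. RefSeq promoter windows of build GRCm38.p6, from 250 bases before to 50 after the start, were at hand for 23 of the 28 genes and for 16 of the 19 enzymes. Some genes had several windows, 29 in all, and a gene was counted where any of its windows held the motif. Both strands were searched. CCAAT, the box of the partner factor NF-Y, was in 20 of the 23 genes and in 15 of the 16 enzymes, where 41.1% of all 27025 genes in the table had it. The 1 enzyme without it was Acat2. GGGCGG, the box of Sp1, was in 21 of 23 and in 14 of 16, against 38.2% of all genes. A strict sterol regulatory element, TCACNCCAC, was in 1 of the 23, Hmgcs1, against 1.44% of all genes. With its first base free (NCACNCCAC) it was in 3 of 23, Acat2, Hmgcs1 and Insig1, against 7.1%. CACGTG, the E box, was in 5 of 23, against 8.09%. These are matches of letters in a short window and not measured binding sites.

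The 250 bases before the RefSeq start are shown for 5 enzymes, 5′ to 3′ on the strand of the gene, in order to set the promoter of Acat2, without a CCAAT box, beside those of Hmgcs1, with the strict sterol regulatory element, and of Mvk, Mvd and Nsdhl, which carry several boxes. Capitals mark the NF-Y and Sp1 boxes, spelled as above or as their reverse complement, and, in Hmgcs1, the sterol regulatory element. The positions are chr17:12960726-12960975 on the minus strand for Acat2, chr13:119690101-119690350 on the plus strand for Hmgcs1, chr5:114444019-114444268 on the plus strand for Mvk, chr8:122443423-122443672 on the minus strand for Mvd and chrX:72918271-72918520 on the plus strand for Nsdhl.
Acat2: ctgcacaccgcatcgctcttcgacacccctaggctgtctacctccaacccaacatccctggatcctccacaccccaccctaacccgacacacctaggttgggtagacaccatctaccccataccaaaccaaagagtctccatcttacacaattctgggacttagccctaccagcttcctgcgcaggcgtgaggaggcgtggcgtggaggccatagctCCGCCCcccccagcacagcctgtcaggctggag
Hmgcs1: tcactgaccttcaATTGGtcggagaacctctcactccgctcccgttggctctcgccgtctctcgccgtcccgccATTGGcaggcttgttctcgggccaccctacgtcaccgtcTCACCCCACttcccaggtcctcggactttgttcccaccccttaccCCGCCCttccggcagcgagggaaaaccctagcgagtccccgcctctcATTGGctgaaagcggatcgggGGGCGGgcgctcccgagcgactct
Mvk: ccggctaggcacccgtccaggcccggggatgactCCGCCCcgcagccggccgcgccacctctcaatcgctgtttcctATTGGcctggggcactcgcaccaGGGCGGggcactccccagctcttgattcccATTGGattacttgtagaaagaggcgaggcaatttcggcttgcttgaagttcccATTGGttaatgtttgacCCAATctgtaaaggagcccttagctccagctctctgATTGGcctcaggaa
Mvd: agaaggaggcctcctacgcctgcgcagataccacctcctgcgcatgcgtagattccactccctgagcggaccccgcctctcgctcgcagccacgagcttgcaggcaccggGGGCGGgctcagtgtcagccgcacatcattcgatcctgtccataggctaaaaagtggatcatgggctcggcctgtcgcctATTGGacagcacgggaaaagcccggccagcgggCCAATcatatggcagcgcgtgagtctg
Nsdhl: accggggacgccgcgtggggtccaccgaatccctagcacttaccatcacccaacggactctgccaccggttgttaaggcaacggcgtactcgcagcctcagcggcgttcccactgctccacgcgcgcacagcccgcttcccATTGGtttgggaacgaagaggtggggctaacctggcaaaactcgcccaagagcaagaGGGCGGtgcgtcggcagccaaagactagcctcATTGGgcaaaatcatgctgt

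Among the printed promoters, that of Mvk had 5 CCAAT boxes and 2 GGGCGG boxes, and Acat2 had a single GGGCGG box.

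The sensing machinery gave 5 genes with an adjusted p, 0 of which passed in either direction. Srebf2, the gene of SREBP2, had 37.0, 25.5, 30.6 and 45.5 normalized counts in WT libraries 1 to 4, and 41.2 in the unnumbered Cd36KO library and 24.2, 48.1 and 27.5 in Cd36KO replicates 2 to 4. The groups overlapped over almost their whole range. The log2 fold change was 0.02 (SE 0.35, 95% interval -0.65 to 0.70, DESeq2 adjusted p = 0.986).

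Scap, the escort of SREBP2, had 105, 96.0, 54.1 and 104.9 normalized counts in WT, and 98.0 in the unnumbered Cd36KO library and 96.7, 104 and 73.2 in replicates 2 to 4. WT replicate 3 was far below the other 3 WT libraries. The log2 fold change was 0.04 (SE 0.26, 95% interval -0.46 to 0.54). Insig1, the ER anchor whose own gene is a target of SREBP2, had 154, 296, 262 and 338 in WT, and 233, 308, 158 and 333 in the unnumbered library and replicates 2 to 4 of Cd36KO. The lowest value of each group was in WT replicate 1 and Cd36KO replicate 3, the libraries that were also lowest for most enzymes, and the log2 fold change was -0.03 (SE 0.28, 95% interval -0.57 to 0.52).

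Insig2, the second anchor, had 44.2, 78.1, 60.0 and 80.1 normalized counts in WT, and 150.4 in the unnumbered Cd36KO library and 71.3, 89.0 and 79.3 in replicates 2 to 4. The unnumbered library was the highest of all 8, and 2 of the other 3 Cd36KO values lay within the WT range. The log2 fold change was 0.57 (SE 0.30, 95% interval -0.02 to 1.16, DESeq2 adjusted p = 0.349), and it was 0.29 without the unnumbered library. Mbtps1, the site-1 protease that makes the first cut in SREBP2, was the tightest of the 5, with 197 to 248 in WT and 205 to 245 in Cd36KO and an interval of -0.35 to 0.31.

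**Figure D4:**
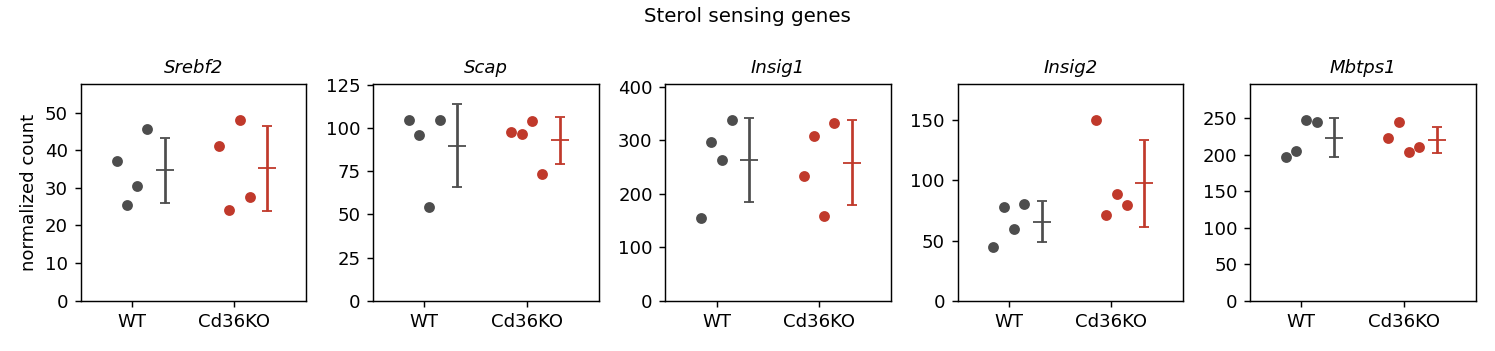
Normalized counts (y axis, from 0) of the 5 sterol sensing genes in the 4 WT and 4 Cd36KO libraries, 1 point a library, with the mean and SD beside the points. The groups overlap for all 5 genes, and Insig2 has 1 Cd36KO point, at 150.4, above the rest.

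All 4 genes of transport and storage had negative log2 fold changes, with a median of -0.18, and 0 passed. Npc2 and Stard4 were positive with the white fat score as covariate, and Soat1 in the 6 libraries numbered 2 to 4. Npc2, the lysosomal protein that binds cholesterol freed from lipoproteins, had 1311 to 2745 normalized counts in WT and 1883 to 2798 in Cd36KO, at -0.05 (95% interval -0.51 to 0.41). Npc1, the lysosomal membrane protein that takes the sterol over from NPC2, had 180 to 257 in WT and 74.6 to 227 in Cd36KO, at -0.48 (95% interval -1.03 to 0.07, DESeq2 adjusted p = 0.418). Its lowest value was that of the unnumbered Cd36KO library. Stard4, a cytosolic carrier, had 11.04 to 23.5 and 2.301 to 20.1, at -0.11, and Soat1 had 9.34 to 18.96 and 2.29 to 21.9, at -0.25. These last genes had 2 to 22 raw counts per library, and their intervals reached -1.19 and -1.45.

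Beside the 28 genes, 42 other genes of the same pathways were read from 4 lists: further SREBP targets, side branches of the prenyl route, ER control of sterol enzymes, and sterol transport. Of these, 37 had an adjusted p, and 0 passed in either direction by DESeq2 (lowest adjusted p = 0.111) or, among 38 tested, by edgeR. At an unadjusted p under 0.05, DESeq2 gave 2 higher and 4 lower, against 7.69% and 7.88% of all genes. The groups did not overlap for 1 higher and 2 lower of the 37, where 4.83% and 3.93% of all genes did not. Their median log2 fold change was -0.11, with 15 positive and 22 negative values.

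Lipa, the lysosomal acid lipase that frees cholesterol from its esters, had 209, 218, 199 and 178 normalized counts in WT, and 261 in the unnumbered Cd36KO library and 246, 299.7 and 259 in replicates 2 to 4. The groups did not overlap, but the difference did not pass (log2 fold change 0.41, SE 0.16, n = 4 each, DESeq2 adjusted p = 0.154, exact two-sided permutation p = 0.0286). Osbp, which exchanges sterol for a phosphoinositide at contacts of ER and Golgi, had 37.0, 41.6, 41.2 and 34.6 in WT, and 13.4, 25.3, 22.5 and 22.9 in the unnumbered library and replicates 2 to 4 of Cd36KO. All Cd36KO values were lower (log2 fold change -0.87, SE 0.33, DESeq2 adjusted p = 0.135). Its relative Osbpl9 had 221 to 253 in WT and 128 to 198 in Cd36KO, again without overlap (log2 fold change -0.41, DESeq2 adjusted p = 0.244), and shares 633 exonic bases with Nrd1 on the opposite strand. Paqr3, a Golgi tether of SCAP, had 8.49 to 15.3 in WT and 0 to 5.57 in Cd36KO, without overlap and with a mean too low for an adjusted p. Abca1, the exporter of cholesterol to apolipoproteins, had the lowest adjusted p of the 42 (0.111, DESeq2), with 84.9 to 192 in WT and 71.3 to 97.8 in Cd36KO. It was named after its values were seen.

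**Figure D5:**
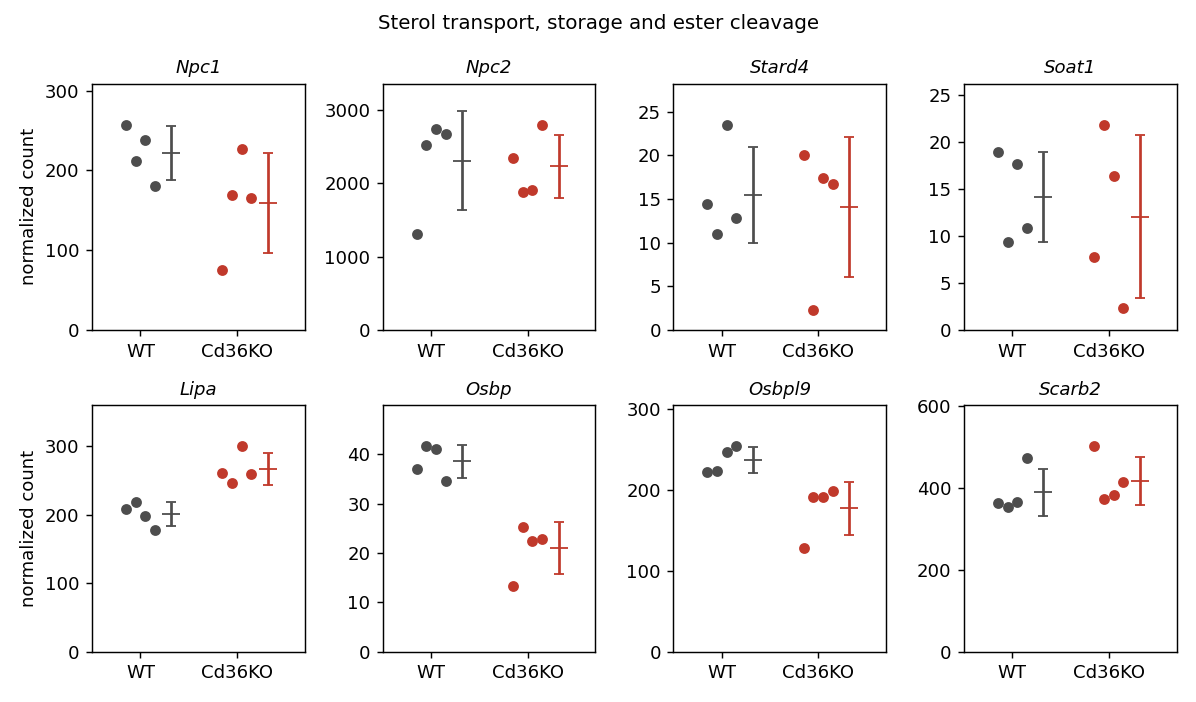
Normalized counts (y axis, from 0) of the 4 transport and storage genes and of Lipa, Osbp, Osbpl9 and Scarb2 in the 4 WT and 4 Cd36KO libraries, 1 point a library, with the mean and SD beside the points. The groups are apart for Lipa, higher in Cd36KO, and for Osbp and Osbpl9, lower in Cd36KO, and they overlap for the others, yet none of the 8 differences has an adjusted p under 0.05.

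The genes of highest mean count among the further SREBP targets, the prenyl side branches and the sterol transport list overlapped between the groups. Acly, which cleaves citrate to cytosolic acetyl-CoA and is itself an SREBP target, had 393, 1032, 666 and 2369 normalized counts in WT libraries 1 to 4. In Cd36KO it had 1651 in the unnumbered library and 1025, 505 and 2029 in replicates 2 to 4. WT replicate 1 and Cd36KO replicate 3 were again the lowest of their groups, and WT replicate 4 was the highest of all 8. Acss2, the cytosolic acetyl-CoA synthetase, named after its values were seen, ran from 126 to 472 in WT and from 156 to 536 in Cd36KO, with the same 2 libraries lowest. Over the 8 further SREBP targets, WT replicate 1 was the lowest WT library for 5 (62.5%, against 31.8% of all genes at the same minimum mean) and WT replicate 4 the highest for 6 (75%, against 31.2%). In Cd36KO, replicate 3 was the lowest for 4 (50%, against 22.8%), whereas the unnumbered library was the highest for 2 (25%, against 31.2%) and replicate 4 for 4 (50%, against 21.4%). Fnta, a subunit of protein farnesyltransferase, had 176 to 398 and 243 to 333 normalized counts in WT and Cd36KO. Scarb2, a lysosomal membrane protein, had 353 to 474 in WT and 373 to 501 in Cd36KO.

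Markers of other cells were read beside these values, since the depot is a mixture. Of 8 white fat markers, 5 were lower in Cd36KO by DESeq2 and 0 higher, where 1.53% of all genes passed as lower, and Hoxc10 was at 0 in every library. By edgeR 4 of the 5 passed, and the fifth, Agt, was not tested. Their sum lay between 247 and 1533 CPM in WT, and between 179 and 294 in Cd36KO. Of the 8 markers listed for brown adipocytes, 3 were higher by DESeq2, Ucp1, Cidea and Cox7a1, and 0 lower. Over all genes, 1.42% passed as higher. By edgeR 0 passed (adjusted p of 0.126, 0.0749 and 0.158 for these 3). Of the 5 that did not pass by DESeq2, Elovl3 had a log2 fold change of 1.22. Fabp4 (-0.73, without overlap of the groups, DESeq2 adjusted p = 0.0762), Pparg (-0.53), Plin1 (-0.45) and Adipoq (-0.27) had negative values. Fabp4, Pparg, Plin1 and Adipoq are also expressed in white adipocytes. Of 8 macrophage markers 1 was lower by DESeq2, Cd163, against the same 1.53% of all genes, and 0 by edgeR (adjusted p = 0.11). Their sum was 187 to 298 CPM in WT and 185 to 261 in Cd36KO. Muscle markers summed to 156 to 16069 CPM in WT and 10.3 to 1686 in Cd36KO. With a white fat score as covariate, 5 sterol genes were higher in Cd36KO by DESeq2, Acat2, Fdft1, Npc2, Nsdhl and Pmvk, among 17 with an adjusted p, where 8.51% of the 5582 genes tested in that fit passed in either direction. There the median log2 fold change of the sterol genes was 0.63 against a median of 0.12 over all genes. That score separates WT replicates 2 to 4 from all Cd36KO libraries, so in that fit it and the genotype are hard to tell apart. With a muscle score as covariate, 0 of 24 sterol genes passed, against 1.8% of 8949 genes.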

How the data were processed

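By the methods of the study, the authors used bbduk to trim the single-end reads, STAR to align them to mm10 and HTSeq-count to make the deposited whole-number counts per gene, which carry no normalization. The submitters' processing notes name Trimmomatic, HISAT2, DESeq2, GRCm38 and mm10, so which trimmer and aligner made the counts is not settled by these sources. Strand setting, use of molecular identifiers and annotation release are not given in the sources used here, so overlapping genes and near-identical copies are uncertain: 10 of the 28 genes overlap another gene's exons and 13 share at least 75 bases at 97% identity with another transcript (BLAST 2.17.0). A second deposited table, from the authors, holds log2 values equal to log2(count / size factor + 1). It was used for 1 alternative only. Groups came from the labels, and the count column without a replicate number is called the unnumbered Cd36KO library. The pair of same-group libraries most alike still differed beyond sampling noise (chi-square per degree of freedom 6.43).

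Symbols, coordinates and exon lengths came from GENCODE M21 on GRCm38, and 30934 of 31053 identifiers matched. Genotype was tested over all genes with DESeq2 1.42.0 in R 4.3.3 (Wald test, median-of-ratios size factors, independent filtering), because the study names it, with Benjamini-Hochberg adjustment over all genes tested and a threshold of 0.05. The alternatives were edgeR 4.0.16 (quasi-likelihood, TMM, filterByExpr), limma 3.58.1 on the deposited log2 values, TMM factors, a minimum of 10 counts in 4 libraries, no independent filtering, a replicate block, dropping each library in turn, and marker scores of muscle or white fat as covariates. Intervals are the fold change ± 1.96 SE. Exact permutation tests used SciPy 1.17.1, and figures matplotlib 3.10.9. The functions were tested on simulated counts.

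The 28 genes and the lists of other genes were chosen with earlier results of these data known. Named were all 28 genes, with values by library for those that passed, those without overlap and the sensing genes except Mbtps1, and from the other lists the genes that passed or did not overlap and the gene of highest mean normalized count in each list, of which 1 is not reported here. Promoters came from RefSeq.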

Additional observations from a re-analysis of the deposited data

Results flagged for a closer look

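Among 52 groups of 4 libraries (26 genes in 2 genotypes), 5 held a library whose gap to its nearest neighbour, as a share of the range of the group, was above the 95% critical value of Dixon's test. Chance flags about 1 in 20 groups, or 2.6 of 52. Hmgcs1 had 487 normalized counts in Cd36KO replicate 4 and 707 to 735 in the other 3 (share 0.903). Sc5d had 170 in the unnumbered Cd36KO library and 105 to 114 in the others (share 0.838). Scap had 54.1 in WT replicate 3 and 96.0 to 105 in the others (share 0.866). Stard4 had 2.301 in Cd36KO replicate 2 and 16.8 to 20.1 in the others (share 0.909). Npc2 had 1311 in WT replicate 1 and 2518 to 2745 in the others (share 0.883). None of these 5 genes passed the test between genotypes with all 8 libraries, and Sc5d passed when WT replicate 1 was left out and in the 6 libraries numbered 2 to 4.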

How the results depend on the processing

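The Acat2 difference kept its direction in all 17 alternatives, with log2 fold changes of 0.45 to 0.80, but not its side of the threshold. Leaving out 1 library at a time gave adjusted p-values of 0.002 to 0.122 by DESeq2, and 5 of the 8 exclusions (WT replicate 2 or 3, the unnumbered Cd36KO library, Cd36KO replicate 3 or 4) left 0 sterol genes higher, so the count ran from 0 to 1. It was also 0 by edgeR (adjusted p = 0.137), by limma on the deposited log2 values (0.194) and with muscle markers as covariate (0.152, DESeq2), and 5 with white fat markers as covariate. Acat2 passed with TMM factors in DESeq2 (0.0101), with a filter of 10 counts in 4 libraries (0.0261) and with independent filtering off (0.027). The number of sterol genes lower in Cd36KO ran from 0 to 1 when 1 library was left out, with Sc5d passing without WT replicate 1. The number of other pathway genes lower ran from 0 to 1 as well, with Abca1 passing without WT replicate 1. The number of sterol genes lower without overlap ran from 0 to 2: Lss and Sc5d without WT replicate 1, Hsd17b7 without WT replicate 4, and Lss and Npc1 without Cd36KO replicate 3. The sterol regulatory element was in 1 promoter, and in 3 with its first base free. Over all genes, the calls ran from 8 by limma and 14 by edgeR to 507 without WT replicate 4, where the 8 libraries gave 284. They also included 69 without WT replicate 2, 475 with white fat markers as covariate, 161 with muscle markers as covariate, and 171 with independent filtering off. Without WT replicate 3 they were 141, and without Cd36KO replicate 3, 4 or the unnumbered library they were 132, 123 and 113. With independent filtering off, 17361 genes were tested in place of 9619. The cause of the other differences was not tested.

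Replicate numbers 2, 3 and 4 are shared between the groups. Same-numbered libraries had correlations of their deviations from the group means of -0.11, 0.36 and 0.27, and WT replicate 2 was closest to Cd36KO replicate 4, so the numbers were taken as names only. With the replicate block over these 6 libraries, 0 sterol genes were higher and 1 lower (Sc5d), and the median log2 fold change of the sterol genes was -0.153 (-0.0810 with no block, and 0.0185 to 0.195 when 1 of the 8 libraries was left out). With no block in the same 6 libraries, 0 were higher and 1 lower (Sc5d), and 1 other pathway gene was lower (Abca1). Over all genes, the block gave 219 calls and no block 262. The adjusted p of Acat2 was 0.412 with the block and 0.182 without it (DESeq2). The following log2 fold changes turned negative in the 6 libraries with and without the block: Mvk (-0.180 and -0.214), Pmvk (-0.230 and -0.0842), Mvd (-0.209 and -0.169), Fdps (-0.100 and -0.0771), Cyp51 (-0.297 and -0.386), Msmo1 (-0.0160 and -0.0350), Nsdhl (-0.420 and -0.422), Dhcr7 (-0.136 and -0.122), Srebf2 (-0.0539 and -0.0236), Acly (-0.205 and -0.190), Fnta (-0.164 and -0.209) and Scarb2 (-0.0138 and -0.0226). Soat1 was 0.0833 without the block.

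With white fat markers as covariate, the median log2 fold change of the 26 sterol genes was 0.632, where that of all genes was 0.124. In that fit Hmgcs1 (-0.204), Srebf2 (-0.0533) and Scap (-0.192) were negative, and Sc5d (0.292), Insig1 (0.726), Mbtps1 (0.192), Stard4 (0.0997) and Npc2 (0.798) were positive, each against its sign in the fit of 8 libraries. With muscle markers as covariate, Nsdhl (-0.0354) and Ebp (-0.0395) were negative. Leaving out 1 library changed the sign of Mvk (range -0.110 to 0.514), Cyp51 (-0.170 to 0.613), Nsdhl (-0.283 to 0.309), Ebp (-0.00185 to 0.209), Srebf2 (-0.163 to 0.181), Scap (-0.133 to 0.144), Insig1 (-0.213 to 0.152), Mbtps1 (-0.0760 to 0.0358), Stard4 (-0.311 to 0.237), Npc2 (-0.243 to 0.0469), Soat1 (-0.710 to 0.117), Acly (-0.0705 to 0.901) and Fnta (-0.0937 to 0.337). None of these genes passed the threshold with all 8 libraries. Other values kept their sign but moved by over 1.5 times, as for Mvd (0.0650 without the unnumbered Cd36KO library to 0.572 without Cd36KO replicate 2), Sqle (0.153 without the unnumbered library to 0.823 without Cd36KO replicate 3), Msmo1 (0.165 without the unnumbered library to 0.787 without WT replicate 4) and Lss (-0.863 without WT replicate 1 to -0.387 without WT replicate 4). At this depth and spread, 14 of the 26 intervals reached past a log2 change of 1 in some direction, those of Sqle, Lss, Stard4 and Soat1 as well as those of better counted genes such as Pmvk, Fdft1, Sc5d and Npc1, and no fold change of Idi1 can be read.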
